A study of Mus musculus with 2 samples.

Results

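Among the GFP− cells of the embryonic mouse retina, a small group carried transcripts of genes that the transcription factor ATF4 switches on when cells are short of amino acids or under other stress. These cells were chosen by 3 genes, *Chac1*, *Trib3* and *Slc7a3*. A cell was a member if its raw UMIs of the 3 genes summed to at least 2 and its mitochondrial fraction was under 0.25, with no upper limit on the number of genes. The rule took 89 of 4444 kept GFP− cells, or 2.00% (exact Clopper-Pearson 95% interval 1.61% to 2.46%), out of 8172 kept cells in both libraries. The comparison cells were the 4171 GFP− cells with a sum of 0, and the 184 cells with a sum of 1 were set apart.

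The cells came from heterozygous *LHX4::GFP* embryos (strain Tg(Lhx4::EGFP)KN199Gsat/Mmucd), in which a BAC transgene drives GFP from *Lhx4* regulatory DNA, at E14.5. Retinas of 2 litters were pooled into 1 suspension and sorted by GFP, and each gate gave 1 droplet library, so all cells share the transgene and no embryo can be told from another. The GFP− library held 4445 cells, 46778924 UMIs and 28692 listed genes, with a median of 9936 UMIs per cell, and the GFP+ library held 3728 cells and 16010591 UMIs, with a median of 3906.5. A UMI (unique molecular identifier) marks 1 captured transcript, and CPM is the UMIs of a gene per 1000000 UMIs of the group. As each gate had 1 library, no p-value was computed, and every interval covers counting error only.

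ATF4 is the effector of the integrated stress response. Kinases that sense amino acid shortage, unfolded protein in the endoplasmic reticulum, viral RNA or lack of heme phosphorylate the initiation factor eIF2α, which lowers translation in general but favours translation of the *Atf4* mRNA. ATF4 then dimerises with C/EBP family proteins and activates genes for amino acid uptake and synthesis, tRNA charging and feedback on translation. *Chac1* encodes an enzyme that degrades glutathione, *Trib3* a pseudokinase that restrains ATF4 and AKT signalling, and *Slc7a3* a transporter of cationic amino acids.

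The known binding site of ATF4 with C/EBP proteins was searched in the RefSeq promoter windows, from 250 bases before to 50 after each start, as TGATGNAA on both strands, where the other strand reads TTNCATCA. Windows from the GRCm38.p6 build are shown for the rule genes that held a match and for the 5 tested ATF4 targets with a match whose ratio in members, given further on within progenitor-marker cells, was highest, on the strand of the gene and with the matched letters in capitals.
Chac1, chr2:119351039-119351066, plus strand: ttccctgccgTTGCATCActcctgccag
Trib3, chr2:152344029-152344056, minus strand: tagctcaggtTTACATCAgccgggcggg
Asns, chr6:7693215-7693242, minus strand: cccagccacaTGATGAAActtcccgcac
Herpud1, chr8:94386307-94386334, plus strand: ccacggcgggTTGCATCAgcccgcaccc
Nupr1, chr7:126625563-126625590, minus strand: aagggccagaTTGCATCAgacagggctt
Vldlr, chr19:27216810-27216837, plus strand: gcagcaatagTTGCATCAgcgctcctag
Slc1a4, chr11:20332700-20332727, minus strand: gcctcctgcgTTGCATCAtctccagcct

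In *Chac1* the matched letters lay 185 bases before the RefSeq start and in *Asns* 15 bases before it, while in *Trib3* they began 15 bases after it. The letters were found in 1304 of 32851 windows, or 3.97%. At the level of genes they were found in 14 of the 42 listed ATF4 targets that had a window (33.3%), against 4.51% of 27025 genes with a window. None of the 5 synthetases outside the ATF4 list, 17 XBP1 and ATF6 targets, 6 heat shock genes and 7 multipotent progenitor markers with a window held them. A match describes letters and not binding, and *Slc7a3* had no window.

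*Chac1* (chr2:119351229-119354381, plus strand, GRCm38) gave 134 of its 202 GFP− UMIs in 71 members, at 144.6 CPM. *Trib3* (chr2:152337422-152344032, minus strand) gave 87 of 136 UMIs in 58 members. *Slc7a3* (chrX:101079210-101086020, minus strand) gave 48 of 115 UMIs in 28 members. These values chose the cells and are a description only. The rule sum was 2 in 38 members, 3 in 26, 4 in 14, and 5 or more in 11. The most frequent combination was *Chac1* with *Trib3*, in 38 members, and 9 members held all 3 genes. Of 139 GFP− cells with a *Chac1* UMI, 47 also had a *Trib3* UMI (33.8%, 26.0% to 42.3%), against 1.39% of the 4305 cells without *Chac1*, at median depths of 10291 and 9925 UMIs.

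Members were cells of the usual depth and content for this library. Their median was 9678 UMIs and 3092 genes per cell, against 9892 UMIs and 2986 genes in cells with a sum of 0. The mitochondrial share had a median of 2.00% in members, from 0% to 5.28%, and of 2.34% in cells with a sum of 0. Ribosomal protein genes took a median of 29.6% of member UMIs, 29.1% in progenitor-marker cells with a sum of 0 and 18.2% in neuron-marker cells with a sum of 0. In 5 bins of depth, from the shallowest to the deepest, members made up 1.24%, 2.36%, 2.93%, 1.57% and 1.91% of cells, so their share did not rise steadily with depth. Scrublet called 55 GFP− cells as doublets (1.24%), none of them a member, and 1 member carried a barcode that was among the 20 found in both libraries.

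To place the members among retinal cells, UMIs of 12 multipotent progenitor markers (among them *Hes1*, *Hes5*, *Nr2e1*, *Sfrp2*, *Fgf15*, *Ccnd1*, *Lhx2*, *Sox2*, *Rax*, *Six3* and *Zfp36l1*) were set against UMIs of 12 neuron markers (*Tubb3*, *Stmn2*, *Stmn3*, *Elavl3*, *Elavl4*, *Dcx*, *Gap43*, *Map1b*, *Snap25*, *Ina*, *Nefl* and *Nefm*). A cell with more of the first was called a progenitor-marker cell and a cell with more of the second a neuron-marker cell. Such a class is a range of a score and not a cell type, and 145 of 4444 cells, none of them a member, lay near the cut. Of the 89 members, 88 were progenitor-marker cells (98.9%, 93.9% to 99.97%). The same class held 79.9% of cells with a sum of 1 and 60.8% of cells with a sum of 0.

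Counted the other way, members were 3.18% of 2770 progenitor-marker cells (2.56% to 3.90%) and 0.060% of 1668 neuron-marker cells, which was 1 cell (0.0015% to 0.334%). The neuron-marker cells were the deeper class, with a median of 10493.5 UMIs against 9788. After each cell was thinned to 6300 UMIs, with 442 shallower cells left out, the rule took 1.68% of progenitor-marker cells and 0 of 1440 neuron-marker cells, which allows up to 0.208%. Single UMIs of the rule genes were not absent from neuron-marker cells. A *Chac1* UMI was present in 1.02% of them (0.595% to 1.63%) and in 4.40% of progenitor-marker cells (3.67% to 5.24%), and a *Slc7a3* UMI in 0.360% and 3.21%.

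**Figure D1:**
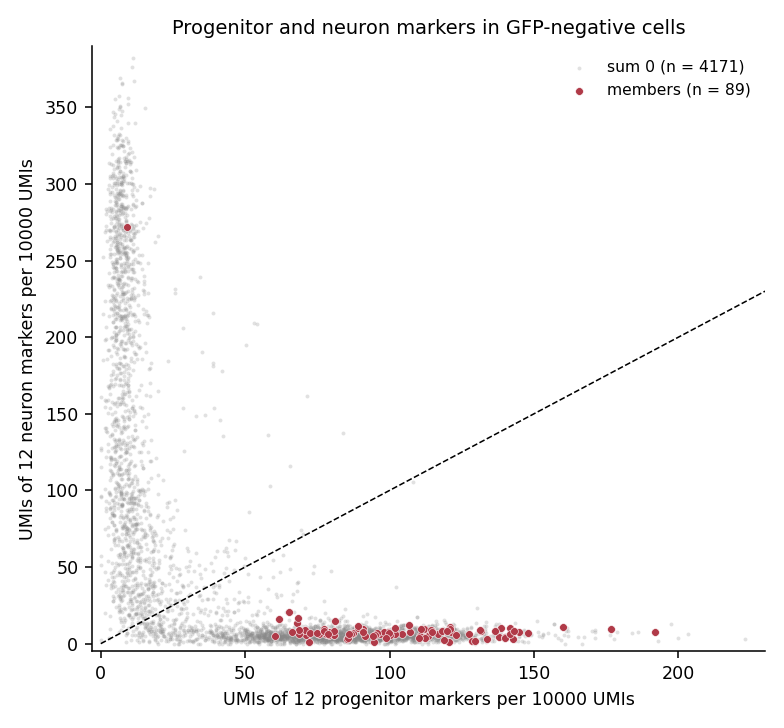
Each point is 1 GFP− cell, with UMIs of 12 multipotent progenitor markers (x axis) and of 12 neuron markers (y axis) per 10000 UMIs of the cell. Grey points are the 4171 cells with a sum of 0 and red points the 89 members, of which 88 lie below the dashed line of equal counts and 1 lies among the neuron-marker cells.

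The 1 neuron-marker member had 14382 UMIs and 272 UMIs of neuron markers per 10000. It carried only *Trib3* of the rule genes, and its ATF4 target level of 37.5 per 10000 was below the median of the members. The progenitor markers of the other 88 members ran from 60.4 to 192 per 10000, with a median of 102, and their neuron markers from 0.849 to 20.8. In progenitor-marker cells with a sum of 0 the medians were 81.3 and 5.47 per 10000. Members therefore lay inside the range of the comparison cells for progenitor markers, which reached from 8.67 to 223.

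The list of ATF4 targets held 53 genes and left out the 3 rule genes. Its level in each cell was the UMIs of the list per 10000 UMIs. In members it was 19.8 at the lowest, 52.8 at the median and 120 at the highest. In progenitor-marker cells with a sum of 0 it was 3.30, 21.3 and 118, and in neuron-marker cells with a sum of 0 it was 9.24, 27.5 and 83.0. The ranges of members and comparison cells overlap, and the median of the members lay above 95% of the progenitor-marker cells with a sum of 0. In all, 51 members (57.3%, 46.4% to 67.7%) were above 49.9 per 10000, the 95th percentile of progenitor-marker cells with a sum of 0.

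The level was higher in members with a larger rule sum. Its median was 48.5 per 10000 at a sum of 2, 59.1 at 3, 61.1 at 4 and 80.3 at 5 or more. Just outside the rule, the 184 cells with a sum of 1 had a median of 38.1. Among the 147 of them in the progenitor-marker class, 56 (38.1%) were above the same percentile. By combination, the medians ran from 43.1 in the 6 members with *Trib3* alone to 80.3 in the 9 members with all 3 genes. The 7 members with *Slc7a3* alone had a median of 46.3 and the 17 with *Chac1* alone one of 52.3.

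**Figure D2:**
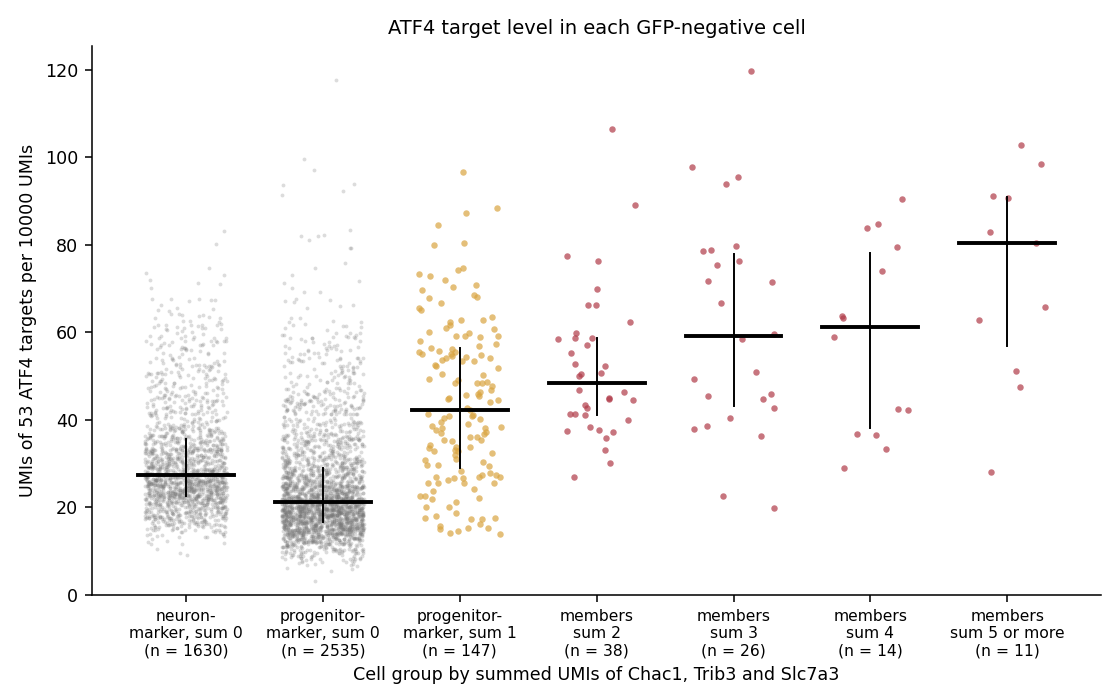
UMIs of the 53 ATF4 targets per 10000 UMIs (y axis) in each GFP− cell, grouped by the summed UMIs of *Chac1*, *Trib3* and *Slc7a3* (x axis). Horizontal bars are medians and vertical lines span the quartiles, and the medians go from 21.3 in progenitor-marker cells with a sum of 0 to 80.3 at a sum of 5 or more.

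Breadth differed as well as level. At 6300 UMIs per cell, members had UMIs of a median of 21 of the 53 targets, from 5 to 32. Cells with a sum of 0 had a median of 10, from 2 to 29. Without thinning the medians were 25 and 13. High target levels also occurred outside the rule: with a sum of 0, 102 progenitor-marker cells (4.02%) and 105 of 1630 neuron-marker cells (6.44%) reached the median of the members. *Gadd45a* and *Map1lc3b* were lower in members than in all cells with a sum of 0 and, for that reason and after the values were seen, were left out of the list in a further count. Then 51 progenitor-marker cells (2.01%) and 0 of 1630 neuron-marker cells with a sum of 0 reached the median of the members, which was then 49.9. As the 2 genes were picked for being lower in members, a fall in these counts was built in. The counts are a description only. The median level went from 27.5 to 16.6 in neuron-marker cells with a sum of 0, from 21.3 to 17.1 in progenitor-marker cells with a sum of 0 and from 52.8 to 49.9 in members. A count of 0 in 1630, taken as at most 3 counts, allows a share of up to 0.184%.

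Genes were compared by the ratio of CPM between members and cells with a sum of 0. A gene was tested if it had at least 20 UMIs in the members, or would have had 20 there at the CPM of the comparison cells, and was called if the ratio was at least 2-fold. Of 5924 tested genes, rule genes left out, 214 (3.61%) were higher and 390 (6.58%) lower. Of the 53 ATF4 targets, 43 were tested, 32 were at least 2-fold higher and 2 at least 2-fold lower, with a median log2 ratio of 1.44 against 0.02 over all tested genes. A gene can pass this filter through the members alone. With the filter set on the comparison cells, 31 targets were tested, of which 20 were higher and 2 lower, against 1.58% higher and 7.33% lower among 5321 genes.

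As nearly all members were progenitor-marker cells, the same ratios were taken within that class, between 88 members and 2535 cells with a sum of 0. Here 79 of 5595 tested genes (1.41%) were higher and 35 (0.626%) lower, and of the 43 ATF4 targets tested 34 were higher and 1 lower. The summed level of the list was 5864 CPM in members and 2427 CPM in comparison cells, a ratio of 2.42 (2.35 to 2.48). With the filter on the comparison cells, 33 of 5106 genes were higher (0.646%) and 35 lower (0.685%). Of these 33 genes, 24 (72.7%) were ATF4 targets, which were 31 of the genes tested (0.607%). By role, these were 3 of 3 transcription factors, 2 of 2 feedback genes, 2 of 3 transporters, 7 of 7 enzymes, 9 of 12 genes for tRNA charging and 1 of 4 other targets. Targets beyond these 31 were tested only through their UMIs in members. All gene values below are from this comparison within progenitor-marker cells unless another is named.

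**Figure D3:**
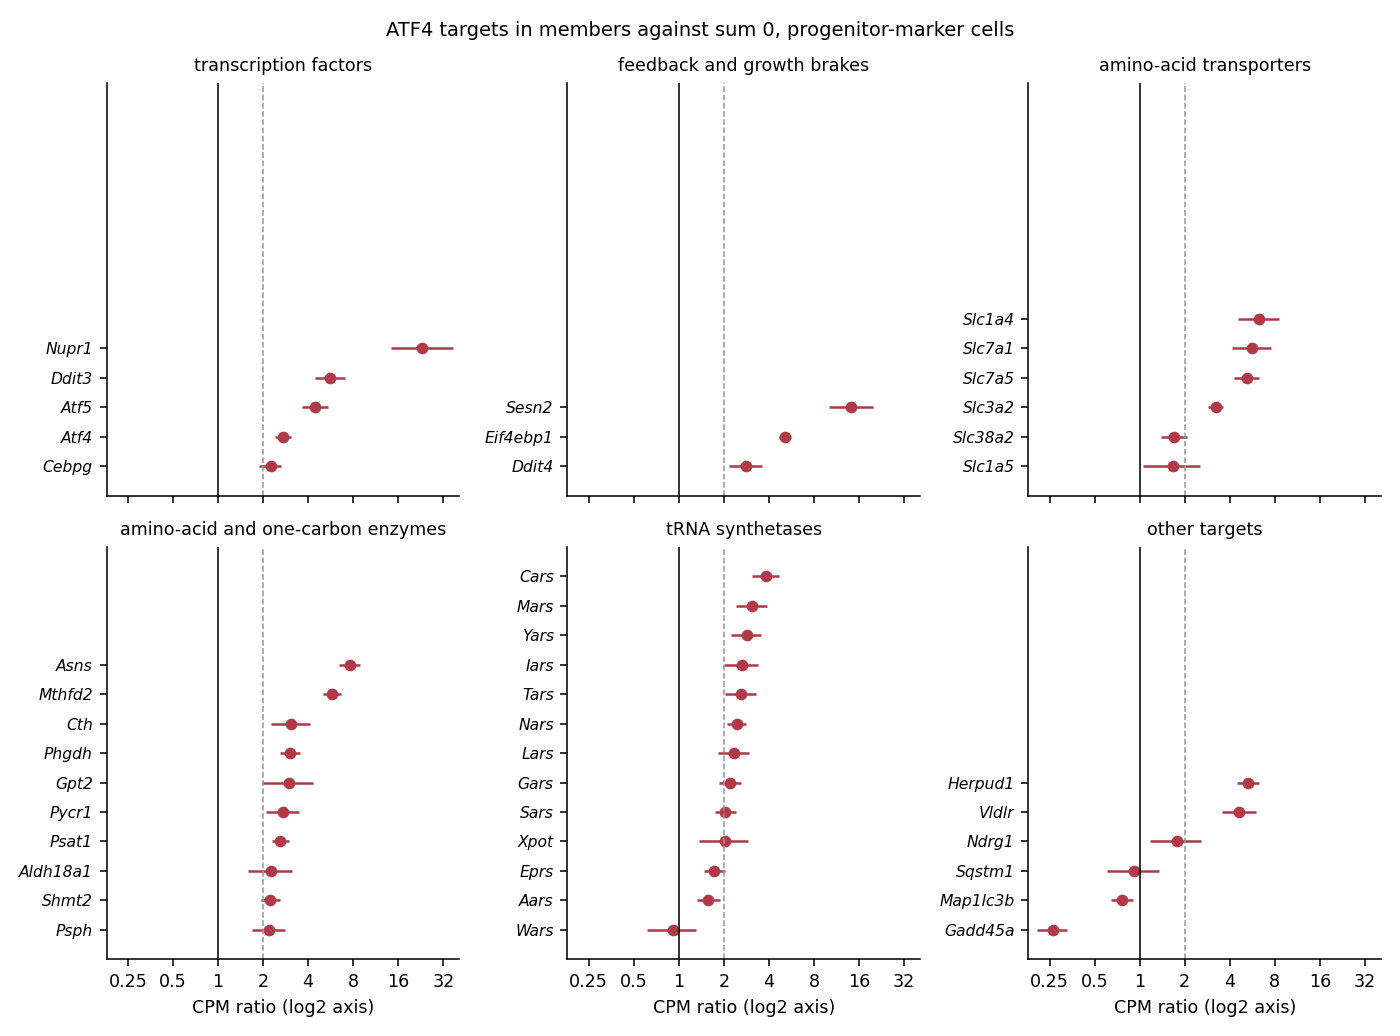
Ratio of CPM in 88 members over 2535 cells with a sum of 0, both progenitor-marker cells (x axis, log2), for the 43 tested ATF4 targets by role. Points are ratios, lines are 95% counting intervals and the dashed line marks 2-fold, which 34 targets reach while *Gadd45a* lies at 0.262.

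The transcription factors of the pathway were all at least 2-fold higher where they could be tested, 5 of 7, against 1.41% of all tested genes. With the filter on the comparison cells it was 3 of 3, against 0.646%, as *Ddit3* and *Nupr1* were tested only through their UMIs in members. *Atf4* itself (chr15:80255184-80257541, plus strand) had from 0 to 10 UMIs per member with a median of 3, and a median of 1 in cells with a sum of 0. It stood at 323 CPM in members and 119 CPM in comparison cells, a ratio of 2.71 (2.40 to 3.06). *Ddit3*, which encodes the stress factor CHOP, stood at 99.8 and 17.7 CPM, 5.64-fold (4.45 to 7.08). *Atf5*, a related factor that is itself controlled at translation, was 4.47-fold higher and *Cebpg*, a partner of ATF4, 2.25-fold. *Nupr1*, a small stress-induced chromatin protein, was 23.2-fold higher (14.4 to 37.1), but 11 of its 35 member UMIs were in 1 cell, and against all cells with a sum of 0 its ratio was 4.57. *Atf3* and *Cebpb* were below the UMI minimum, with 16 and 14 UMIs in members.

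Genes that brake growth or feed back on translation were the group with the highest summed ratio, 4.68 (4.30 to 5.08). *Eif4ebp1* (chr8:27260329-27276674, plus strand) encodes a repressor of cap-dependent translation and was the most abundant ATF4 target in members. Its UMIs per member ran from 0 to 14 with a median of 6, it was found in 83 of 88 members, and it stood at 563 CPM against 110 CPM, 5.11-fold (4.64 to 5.61). *Sesn2* (chr4:132492032-132510501, minus strand), an inhibitor of mTORC1 in amino acid shortage, was at 60.3 CPM against 4.24, a ratio of 14.2 (10.1 to 19.8). *Sesn2* was tested only through its UMIs in members. At 6300 UMIs per cell it was detected in 34.5% of members and 2.40% of comparison cells. *Ddit4*, another mTORC1 inhibitor, was 2.80-fold higher. *Ppp1r15a*, which encodes the GADD34 subunit that dephosphorylates eIF2α, had 19 UMIs in members and a ratio of 1.64 (0.974 to 2.60), below the UMI minimum.

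Among amino acid transporters, 4 of the 6 tested were at least 2-fold higher. With the filter on the comparison cells it was 2 of 3, as *Slc7a1* and *Slc1a4* were tested only through their UMIs in members. *Slc7a5* and *Slc3a2* encode the subunits of the LAT1 transporter for large neutral amino acids, and their ratios were 5.18 (4.25 to 6.26) and 3.22 (2.86 to 3.61). The cationic transporter *Slc7a1* was 5.63-fold higher, and *Slc1a4*, which carries alanine, serine and cysteine, 6.30-fold. *Slc38a2* and *Slc1a5*, both glutamine carriers, had ratios of 1.70 and 1.67 and were not called. The glycine transporter *Slc6a9* and the cystine transporter *Slc7a11* had 16 and 8 UMIs in members, too few for the rule.

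All 10 tested enzymes of amino acid and one-carbon metabolism were at least 2-fold higher, against 1.41% of all tested genes. With the filter on the comparison cells it was 7 of 7, against 0.646%. *Cth*, *Gpt2* and *Aldh18a1* were tested only through their UMIs in members. *Asns*, which makes asparagine (chr6:7675169-7693254, minus strand), was at 217 CPM in members and 28.5 CPM in comparison cells, a ratio of 7.60 (6.47 to 8.91), and was found in 62 of 88 members with up to 15 UMIs. *Mthfd2*, a mitochondrial enzyme of the folate cycle, was at 281 and 48.5 CPM, 5.78-fold. Along the pathway from glycolysis to serine and glycine, *Phgdh* was 3.04-fold higher, *Psat1* 2.61-fold, *Psph* 2.18-fold and *Shmt2* 2.24-fold. *Cth* of cysteine synthesis, *Gpt2* of alanine metabolism, and *Pycr1* and *Aldh18a1* of proline synthesis lay between 2.25 and 3.09. *Cbs* and *Aldh1l2* had 2 and 5 UMIs.

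Of the 13 genes for tRNA charging and export, 10 were at least 2-fold higher, or 9 of 12 with the filter on the comparison cells. The ratios were 3.79 for *Cars*, 3.08 for *Mars* and 2.83 for *Yars*, the highest, and 1.73 for *Eprs*, 1.57 for *Aars* and 0.912 for *Wars*, the lowest, each gene charging the tRNA of cysteine, methionine, tyrosine, glutamate and proline, alanine or tryptophan. The tRNA exporter *Xpot* was 2.02-fold higher (1.37 to 2.88). The 8 cytosolic synthetases that were not listed as ATF4 targets gave another picture. None was called, their ratios ran from 0.723 for *Qars* to 1.44 for *Farsb*, and their summed ratio was 1.01 (0.907 to 1.11), against 2.17 (2.05 to 2.29) for the listed ones.

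The remaining targets were mixed, with 2 higher and 1 lower of 6 tested. With the filter on the comparison cells it was 1 higher and 1 lower of 4, as *Vldlr* was tested only through its UMIs in members. *Herpud1*, which serves degradation of endoplasmic reticulum proteins, was 5.28-fold higher (4.44 to 6.25), and the lipoprotein receptor *Vldlr* 4.64-fold. *Gadd45a* (chr6:67035096-67037457, minus strand), a growth arrest gene, went the other way at 84.4 CPM against 323 CPM, a ratio of 0.262 (0.206 to 0.327). It was detected at 6300 UMIs in 27.4% of members and 40.0% of comparison cells, and 16 of its 77 member UMIs were in 1 cell. The autophagy genes *Map1lc3b* and *Sqstm1* had ratios of 0.764 and 0.918. *Map1lc3b* was called lower only against all cells with a sum of 0, at 0.421, where neuron-marker cells are included. The secreted factors *Stc2*, *Gdf15* and *Fgf21* had 19, 3 and 3 UMIs in members, those of *Fgf21* all in 1 cell.

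Other stress programmes were listed beside ATF4. None of the 12 tested of 19 targets of XBP1 and ATF6, the factors that answer unfolded protein in the endoplasmic reticulum, was called. Over all tested genes 1.41% were higher and 0.626% lower, so few calls would fall among 12 genes at that share. The summed ratio of all 19 was 0.818 (0.773 to 0.866). *Herpud1*, at 5.28, was counted in the ATF4 list and not in this one. The chaperone *Hspa5* was at 103 CPM in members and 150 CPM in comparison cells, a ratio of 0.686 (0.553 to 0.841), *Calr* was at 0.683 and *Xbp1* at 0.851. Heat shock genes had a summed ratio of 0.945 and 1 of 6 tested was lower, the co-chaperone *Dnajb1* at 0.439. Mitochondrial chaperones and proteases were at 1.04, with *Hspa9* at 1.55. The 8 NRF2 targets, which answer oxidative stress, had a summed ratio of 0.833, and none of the 4 tested was called. *Hmox1* of this list had 15 UMIs in members, below the minimum. Genes of p53, immediate early genes and apoptosis genes were at 1.08, 1.15 and 1.07, and none was called. In these lists the highest ratios were 1.86 for *Bbc3*, 1.90 for *Klf6* and 1.43 for *Bcl2l11*.

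The machinery upstream of ATF4 was also near the comparison level. Of 13 genes for the eIF2α kinases, their regulators and the eIF2 and eIF2B subunits, 8 were tested and none was called, with a summed ratio of 1.05 (0.952 to 1.17). The kinases for amino acid shortage (*Eif2ak4*), heme lack (*Eif2ak1*), viral RNA (*Eif2ak2*) and unfolded protein (*Eif2ak3*) had 14, 14, 8 and 1 UMIs in members, all below the minimum, so which kinase was expressed more was not detectable at this depth. The phosphorylation of eIF2α was not measured.

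**Figure D4:**
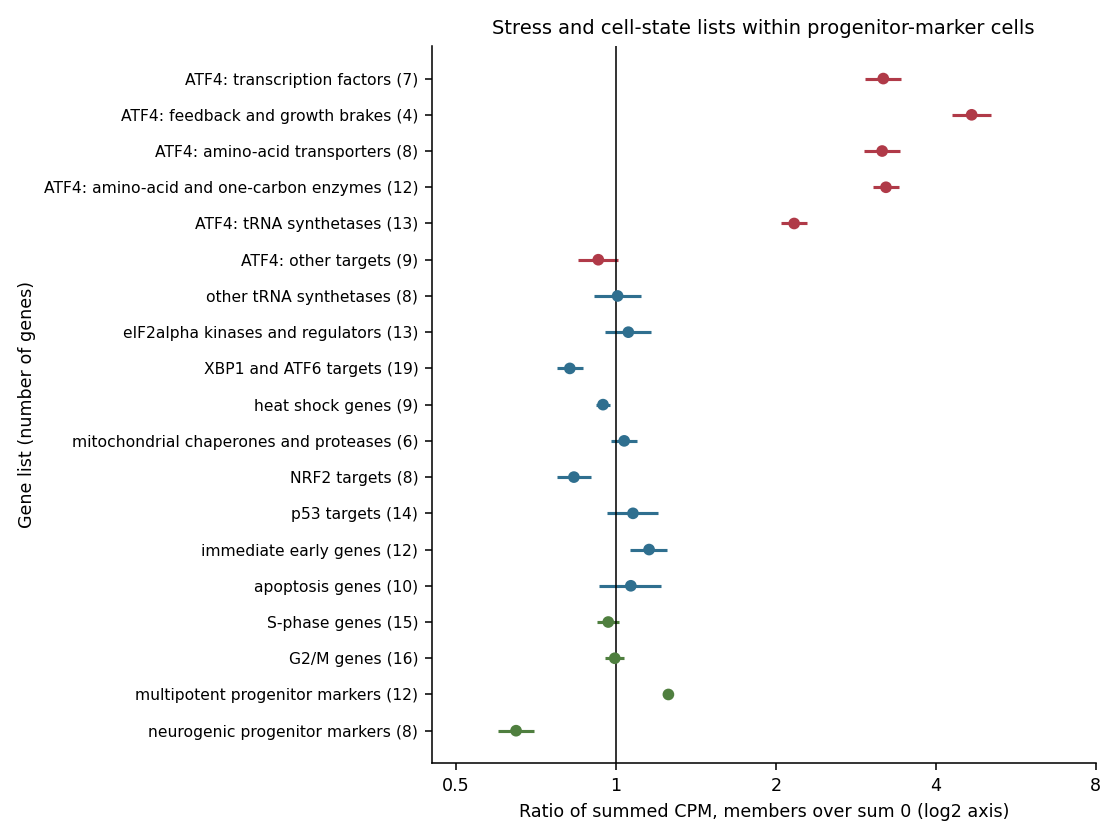
Ratio of the summed CPM of each gene list in members over cells with a sum of 0, both progenitor-marker cells (x axis, log2), with 95% counting intervals as lines and list sizes in brackets. ATF4 lists (red) run from 0.926 to 4.68, other stress lists (blue) from 0.818 to 1.15 and cell-state lists (green) from 0.648 to 1.25.

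Within the progenitor-marker class, members carried more of the multipotent and less of the neurogenic genes. The 12 multipotent markers helped to define the class, and their summed ratio was 1.25 (1.23 to 1.28), with none at 2-fold. *Fgf15*, a growth factor of early progenitors, had the highest ratio at 1.59 (1.53 to 1.65), and the orphan receptor *Nr2e1* and the Notch effector *Hes1* followed at 1.41 and 1.36. *Six3* and *Hes5* were at 1.03 and 1.04. Against all cells with a sum of 0, many of them neurons, the summed ratio was 1.91.

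The neurogenic genes, which mark progenitors close to their last divisions, had a summed ratio of 0.648 (0.599 to 0.700), and 3 of 7 tested were at least 2-fold lower. *Atoh7* (chr10:63099651-63101279, plus strand), the factor that retinal ganglion cells require, was at 19.7 CPM in members and 96.1 CPM in comparison cells, a ratio of 0.205 (0.121 to 0.325). It was found in 5 of 88 members with 18 UMIs in all, and the highest count in a member was 8. The Notch ligands *Dll1* and *Dll3* were at 0.140 (0.0289 to 0.412) and 0.256 (0.0936 to 0.560). *Hes6*, *Neurog2* and *Gadd45g* lay at 0.680, 0.712 and 0.607, short of 2-fold. *Olig2* had 1 UMI in members and was below the minimum. *Sncg*, listed as a ganglion cell marker, had a UMI in 27 of 89 members (30.3%), so a UMI in a cell was not read as expression of the gene by that cell.

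**Figure D5:**
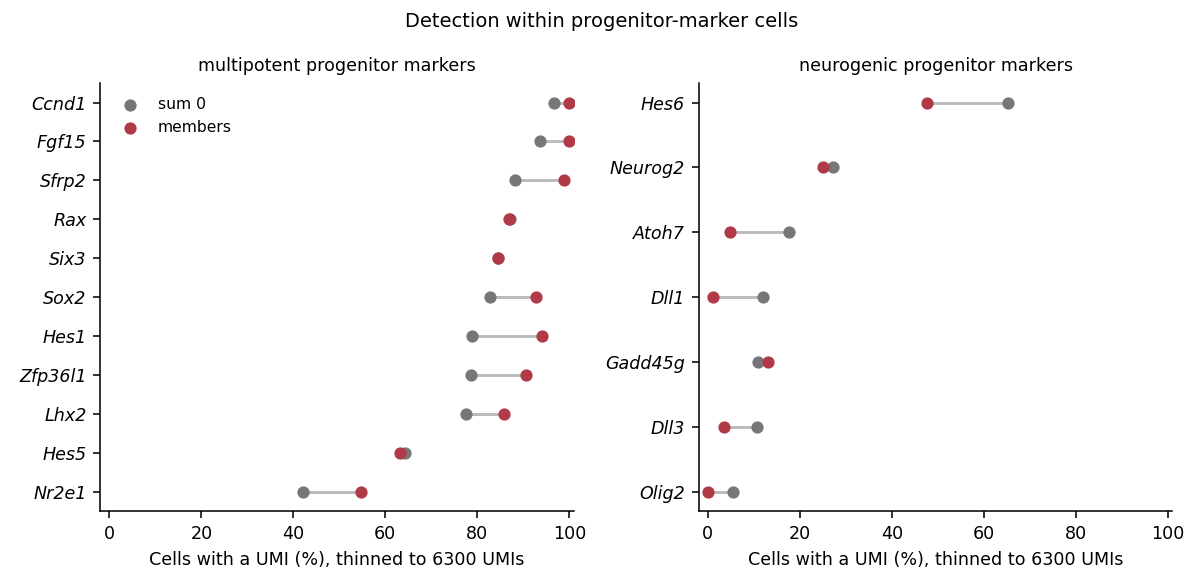
Share of progenitor-marker cells with a UMI of each gene (x axis, %) after thinning to 6300 UMIs, for markers from both lists, in members (red) and cells with a sum of 0 (grey). *Hes1* was found in 94.0% of members and 78.9% of comparison cells, *Atoh7* in 4.76% and 17.6%, and *Hes6* in 47.6% and 65.3%.

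The share of members among cells with at least 2 UMIs of a marker gives the same values from the side of the lineage. Members were 4.95% (3.49% to 6.78%) of 728 cells with *Nr2e1*, 3.88% of 2112 cells with *Hes1* and 3.64% of 2171 cells with *Sox2*. They were 0.236% (0.0286% to 0.850%) of 847 cells with *Atoh7*, 1.15% of 2704 cells with *Hes6* and 1.46% of 756 cells with *Neurog2*. Among cells with *Pou4f2*, the ganglion cell factor, there were 0 members of 541. A count of 0, taken as at most 3 counts, allows up to 0.555% there, and the Clopper-Pearson upper limit was 0.680%. Among cells with the amacrine factor *Ptf1a* there were 0 of 356, with limits of 0.843% and 1.03%.

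Cell cycle genes stood at the level of other progenitor-marker cells. The 15 S-phase genes had a summed ratio of 0.967 (0.921 to 1.01) and the 16 G2/M genes 0.995 (0.953 to 1.04), and none of the 31 was called. *Pcna* was at 1.14, *Rrm2* at 0.712 and *Ung* at 0.582 in the first list, and *Top2a* at 1.20 and *Ccnb2* at 0.661 in the second. Against all cells with a sum of 0 the lists were at 1.42 and 1.47.

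The neuron markers helped to define the class, and markers of postmitotic neurons were low in members against all cells with a sum of 0 but not all of them within the class. Against all cells with a sum of 0, the neuron markers were at 0.147 (0.138 to 0.156), the ganglion cell markers at 0.0937, the amacrine and horizontal markers at 0.0806 and the photoreceptor markers at 0.247. Within the class, the neuron markers were at 1.13 (1.04 to 1.22), the ganglion cell markers at 1.02 (0.787 to 1.31), the amacrine and horizontal markers at 0.367 (0.217 to 0.582) and the photoreceptor markers at 0.413 (0.305 to 0.547). *Otx2*, the factor of photoreceptor precursors, was at 7.67 CPM against 56.7 CPM, a ratio of 0.135 (0.0544 to 0.280). *Ptf1a* and *Tfap2b* had 1 and 0 UMIs in members.

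Markers of cells outside the neural retina were at or near 0 in members, except for the endothelial list. Members held 0 UMIs of the 7 microglia markers and of the 6 lens markers, 1 UMI of the 8 pigment epithelium markers, from *Mitf*, 4 of the 7 mesenchyme markers and 2 of the 6 erythroid markers. The 6 endothelial markers gave 82 UMIs, at 88.5 CPM against 62.4 CPM in all cells with a sum of 0, a ratio of 1.42 (1.12 to 1.77). Of these UMIs the receptor *Kdr* gave 66, while *Cdh5*, *Cldn5* and *Tie1* were at 0. *Kdr*, the 1 tested gene of the list, was at least 2-fold higher against all cells with a sum of 0, at a ratio of 2.35 (1.81 to 3.01). Within the class it was at 72.4 CPM in members and 46.5 CPM in comparison cells, a ratio of 1.55 (1.19 to 1.99). In the comparison cells, 1 progenitor-marker cell held 99.1% of the haemoglobin UMIs.

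Outside the lists, the gene with the highest ratio against all cells with a sum of 0 was *Pck2* (chr14:55540266-55551242, plus strand), which encodes mitochondrial phosphoenolpyruvate carboxykinase. It had 81 UMIs in members and stood at 87.4 CPM against 7.15 CPM, a ratio of 12.2 (9.46 to 15.7), or 9.81 within the class. The secreted factor *Serpinf1* was at 9.79 (6.33 to 14.7), the transcription factor *Creb5* at 5.73 and the hedgehog inhibitor *Hhip* at 4.48. *P2rx4* was at 4.39, but 17 of its 22 UMIs were in 1 cell. Next came *Zfp820*, *Crym*, *Gli1*, *Atoh8*, *Arl14ep*, *Espn*, *Itgb8*, *Crhbp*, *Oip5* and *Sema4d*, from 3.78 down to 2.98. Within the class their ratios ran from 2.81 for *Arl14ep* to 1.91 for *Sema4d*, and *Espn*, *Oip5* and *Sema4d* were short of 2-fold. *Serpinf1*, *Creb5* and *Hhip* were at 6.82, 4.38 and 2.80 there. Of these 15 genes, *Arl14ep* and *Espn* would have reached the minimum of 20 UMIs at the level of the comparison cells. The others passed it through their UMIs in members, so they had to be higher in members to be ranked. *Gli1* reports hedgehog signalling and stood at 3.30, or 2.08 within the class. *Ptch1*, another hedgehog target that was looked up after these values were seen, had 14 UMIs in the 88 members and a ratio of 0.775 (0.421 to 1.31) within the class.

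The next values are for genes outside the lists that had a UMI in members, against all cells with a sum of 0. The 15 lowest were *L1cam*, *Apc2*, *Nell2*, *Scrt1*, *Scg3*, *Calb2*, *Irx2*, *Syt13*, *Nsg2*, *Dusp26*, *Shb*, *Scrt2*, *Snhg11*, *Mir124a-1hg* and *Islr2*. Their ratios ran from 0.0289 to 0.0577, with from 1 to 7 UMIs in members. Neuron-marker cells were 39.1% of these comparison cells. Within the progenitor-marker class, those with a UMI in members ran from 0.147 (0.00371 to 0.831) for *Mir124a-1hg* to 1.67 (0.195 to 6.53) for *Snhg11*. The low ratios are therefore not read as a trait of members among progenitor-marker cells. Of all tested genes, listed or not, *Hba-a1*, *Hbb-bt*, *Resp18* and *Tfap2b* had 0 UMIs in members and are not in this ranking. *L1cam* encodes an adhesion molecule of neurons and *Calb2* a calcium-binding protein. Within the progenitor-marker class, in a ranking of genes of no list made after the values were seen, the lowest was the neuropeptide precursor *Penk* with 2 UMIs, at 2.19 CPM against 33.4 CPM, a ratio of 0.0657 (0.00795 to 0.238). Among genes that passed the filter on the comparison cells there, 9 genes of no list were at least 2-fold higher, with *Glipr2* at 3.83 (3.06 to 4.76), *Arl14ep* at 2.81, *Snhg12* at 2.40, *Atxn2l* at 2.30 and *Stmn4* at 2.28. The others were *Got1* of aspartate metabolism at 2.13, the transcriptional regulators *Id4* at 2.12 and *Atoh8* at 2.03, and *Gli1* at 2.08.

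On the ATF4 list, the cells with a sum of 1 lay between members and cells with a sum of 0. Within the progenitor-marker class, their ATF4 list ratio was 1.80 (1.75 to 1.84), and 23 of 44 tested targets were at least 2-fold higher, against 0.611% of 7201 tested genes. With the filter on the comparison cells it was 18 of 38 targets, against 0.324% of 6793 genes. With either filter 0 targets were at least 2-fold lower, against 0.5% and 0.53% of all tested genes. *Asns* was at 4.67, *Eif4ebp1* at 3.46 and *Sesn2* at 6.16, each below its ratio in members. The order varied among the other lists. Multipotent markers were also between, at 1.14 (1.13 to 1.16) beside 1.25 in members, as were XBP1 and ATF6 targets, at 0.869 (0.833 to 0.907) beside 0.818, and photoreceptor markers, at 0.476 (0.384 to 0.584) beside 0.413. Neurogenic markers were at 0.616 (0.579 to 0.655) in cells with a sum of 1, beside 0.648 in members. S-phase genes were at 0.805 (0.772 to 0.839), beside 0.967 in members, and G2/M genes at 1.18 (1.15 to 1.22), beside 0.995, so these 3 lists were not between.

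The same rule took 129 of 3728 GFP+ cells, or 3.46% (2.90% to 4.10%), at a lower depth, so the values are set side by side only. The 10 photoreceptor markers summed to 8038 CPM in the GFP+ cells with a sum of 0 and to 214 CPM in the GFP− ones. There the ATF4 list ratio over cells with a sum of 0 was 4.50 (4.40 to 4.61), and 43 of 47 tested targets were at least 2-fold higher, against 4.26% of 5233 tested genes. With the filter on the comparison cells it was 24 of 28 targets, against 1.86% of 4626 genes. With either filter 0 targets were at least 2-fold lower there, against 1.43% and 1.62% of all tested genes. *Atf4* was at 987 CPM in GFP+ members and 371 CPM in their comparison cells, a ratio of 2.66, beside 2.71 in GFP− members. *Asns* was at 652 and 34.7 CPM, a ratio of 18.8 beside 7.60. *Eif4ebp1* was at 606 and 49.4 CPM, a ratio of 12.3 beside 5.11. XBP1 and ATF6 targets were at 0.920 in the GFP+ library and 0.818 in the GFP− progenitor-marker cells. *Gadd45a* was at 1.12 (0.861 to 1.44) in the GFP+ library, against 0.262 in the GFP− progenitor-marker cells.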

How the data were processed

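Single-cell libraries of GFP+ and GFP− cells were read as the authors deposited them, as raw UMI counts per gene and cell from Cell Ranger 2.1.1 with mm10, for barcodes called as cells and with no normalization. One GFP− cell was removed by the mitochondrial limit of 0.25. UMIs were summed over groups of cells and scaled to CPM. Ratios carry exact conditional binomial 95% intervals and shares Clopper-Pearson 95% intervals. Calls used a minimum of 20 UMIs and a 2-fold limit. Thinning took each cell to 6300 UMIs, the 10th percentile of the library rounded down. Cells are not replicates, and with 1 library per gate no test was made. Scrublet (scanpy 1.11.5, expected doublet rate 0.03) marked doublets, which were kept. Python 3.11.15 was used with scipy 1.17.1, pandas 2.3.3 and numpy 2.4.6, while edgeR 4.0.16 (R 4.3.3) gave the TMM factors. Intervals were tested on simulated group totals that held counting error only, so spread between cells was not part of that test.

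The cells, the rule and the gene lists were chosen with earlier results of these data known. The lists were written from general knowledge. Genes named are list members, in each list those with the highest and lowest ratio, those under the minimum or at 0, and, beyond the lists, the top 15 and bottom 15 genes by ratio against cells with a sum of 0. Some list members are not reported here. Names outside this rule are said to be chosen after the values were seen. Alternatives changed the limits on cells, the rule sum and its genes, depth, weights of comparison cells, scaling and the UMI minimum. Ratios within progenitor-marker cells, the filter on the comparison cells and the target level without *Gadd45a* and *Map1lc3b* were added after seeing the data. Promoter windows are from RefSeq (GRCm38.p6), gene positions from the GENCODE annotation of GRCm38.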

Additional observations from a re-analysis of the deposited data

How the results depend on the processing

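The number of members was 51 with a rule sum of at least 3, 59 without *Trib3* in the rule, 45 without *Chac1* and 43 after thinning, against 89. The share of members in the progenitor-marker class was 100% with 250 to 3500 genes per cell, with a sum of at least 3, without *Trib3* and after thinning. The ATF4 list ratio of 2.22 against all cells with a sum of 0 was 2.15 with 250 to 3500 genes, 2.39 with a sum of at least 3, 2.32 without *Trib3*, 2.40 without *Chac1*, 2.12 after thinning, 2.42 with comparison cells weighted by class and depth or within the class, and 2.16 with TMM factors or with means of per-cell values. Of the targets, 21 were higher after thinning and 20 with the filter on comparison cells, against 32.

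Counts of called genes depended most on the UMI minimum and on the comparison cells. Against 214, the number of higher genes was 130 without *Chac1*, 82 after thinning, 75 with weights by class and depth, 87 with at least 50 UMIs, 1269 with no minimum, 84 with the filter on comparison cells and 79 within the class. Against 390, the number of lower genes was 232 with 250 to 3500 genes, 242 without *Chac1*, 152 after thinning, 33 with weights by class and depth, 179 with at least 50 UMIs, 1341 with no minimum and 35 within the class.

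The neuron marker ratio of 0.147 turned to 1.15 with weights by class and depth and to 1.13 within the class, settings that give neuron-marker comparison cells the small weight of their share among members or leave them out. It was 0.0999 with a sum of at least 3, 0.0955 without *Trib3*, 0.197 without *Chac1*, 0.105 after thinning, 0.162 with weights by depth and 0.156 with means of per-cell values. The multipotent marker ratio of 1.91 was 1.86 with 250 to 3500 genes or TMM factors, 2.00 without *Trib3*, 1.82 without *Chac1*, 1.81 after thinning, 1.84 with weights by depth, and 1.25 with weights by class and depth or within the class. The XBP1 and ATF6 ratio of 0.844 was 0.913 with 250 to 3500 genes, 0.787 with a sum of at least 3 and 0.914 after thinning. The cause of the other shifts was not tested.

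With 1 library per gate, differences between embryos, litters or sorts could not be measured. No paired analysis was possible because each gate has 1 library and no test was made.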
